A study of Homo sapiens with 8 samples.

Results

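The genes described here handle iron: they store it, bring it into the cell, export it, release it from haem, or read the cell's iron level. They are 10 genes named by symbol, FTL, FTH1, NCOA4, TFRC, SLC11A2, SLC39A14, SLC40A1, HMOX1, ACO1 and IREB2, and all 10 were listed among the 14870 rows of the authors' deposited table. The samples were LX-2 cells, an established line of human hepatic stellate cells, grown in medium with a low serum content and sequenced as bulk RNA. In 4 samples the cells received recombinant human TGF-β1 and 5 µM ML290, a small molecule that activates RXFP1, the receptor of relaxin, for 72 h. In the other 4 they received recombinant human TGF-β1 and the solvent DMSO for the same 72 h. All 8 samples therefore carried TGF-β1, the cytokine that activates stellate cells, and neither an untreated group nor ML290 alone is analysed here. The labels name 4 biological replicates a group of this single line and do not say whether they were separate cultures, so p-values measure the spread between these samples, which may be technical.

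Values are the authors' group means of normalised read counts, with 1 mean a gene and group, so no value per sample, SD or SE can be set beside them, and whether single samples of the groups overlap is not known. The measure of difference is the step-up adjusted p of the authors' deposited table, called at 0.05 over the whole table. By the spacing of the low values, 1 read of a library adds about 0.0523 to the summed value of the 4 ML290 samples and 0.0476 to that of the 4 DMSO samples, from which approximate read numbers below were derived. Of 15 stellate cell markers 13 were listed, without DES and LRAT, and the summed level of those listed was 5145 with ML290 and 8311 with DMSO by the authors' deposited table. The list went both ways, with 8 markers lower and 3 higher (VIM, RELN and TCF21), and COL1A1, a chain of type I collagen, had 1810 of that sum with ML290 and 4231 with DMSO by the authors' deposited table. Of 10 hepatocyte markers 2 were listed, with summed levels of 2.46 with ML290 and 2.72 with DMSO, and ALB and HAMP were not listed, by the authors' deposited table. Of 9 macrophage markers 3 were listed, without PTPRC, with summed levels of 75.8 with ML290 and 41.1 with DMSO by the authors' deposited table. CD68, a lysosomal protein, made up most of that sum with 71.7 for ML290 and 35.1 for DMSO, 2.04-fold higher (adjusted p = 1.48e-05), while CD14 was lower with 3.59 for ML290 and 5.38 for DMSO (adjusted p = 0.0169), by the authors' deposited table. Of 9 erythroid markers only EPOR was listed, higher with 30.7 for ML290 and 14.96 for DMSO at an adjusted p of 1.66e-06, and no globin gene was, by the authors' deposited table. Endothelial markers, 4 of 7 listed with 0 called, summed to 2.28 with ML290 and 3.04 with DMSO, and cholangiocyte markers, 2 of 5 listed with 1 higher and 1 lower, to 43.9 with ML290 and 38.6 with DMSO, by the authors' deposited table. The part of these markers in the results was not tested. In bulk samples, fewer cells that express a gene and less RNA per cell cannot be told apart.

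Iron enters most cells bound to transferrin, through the transferrin receptor TFRC and the endosomal transporter SLC11A2 (DMT1), or unbound through SLC39A14 (ZIP14). What is not used is kept in ferritin, a hollow shell of heavy (FTH1) and light (FTL) chains, or leaves through ferroportin, SLC40A1, the known exporter of ferrous iron. When iron is short, the regulatory proteins ACO1 (IRP1) and IREB2 (IRP2) bind hairpins called iron-responsive elements, which blocks translation of ferritin and ferroportin mRNA and protects TFRC mRNA from decay. In the liver, stellate cells lie beside the hepatocytes that hold most of the body's stored iron, and iron load is a known accompaniment of fibrosis.

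The hairpins of 5 of these mRNAs are shown because they are the known binding sites of the regulatory proteins. Each line gives a site of 27 bases from GENCODE 29 transcripts on GRCh38, 5′ to 3′ in mRNA sense, with the bulged C and the loop of 6 bases in capitals. The sites in FTL, FTH1 and SLC40A1 lie in the 5′ UTR and those in TFRC and SLC11A2 in the 3′ UTR.
FTL, chr19:48965336-48965362, plus strand: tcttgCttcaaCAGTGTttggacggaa
FTH1, chr11:61967575-61967601, minus strand: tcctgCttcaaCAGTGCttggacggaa
SLC40A1, chr2:189580662-189580688, minus strand: aacttCagctaCAGTGTtagctaagtt
SLC11A2, chr12:50988270-50988296, minus strand: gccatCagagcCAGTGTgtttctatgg
TFRC, chr3:196050980-196051006, minus strand: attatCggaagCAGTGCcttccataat
TFRC, chr3:196050576-196050602, minus strand: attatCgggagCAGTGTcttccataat
TFRC, chr3:196050511-196050537, minus strand: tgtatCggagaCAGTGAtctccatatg
TFRC, chr3:196050464-196050490, minus strand: attatCgggaaCAGTGTttcccataat

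The search was for a C, then any 5 bases, then CAGTG and any base, on the mRNA strand within a UTR, with the 5 bases on either side of the loop able to pair with at most 1 mismatch and at least 4 of the 5 pairs below the bulge. UTRs of 0.542% of 19555 protein-coding genes held such a site. The site of SLC11A2 has 1 mismatch above the bulge and 1 pair below it when paired without gaps, so it met only the search without the lower stem, which 5.66% of genes met. It is printed because its hairpin is a known one. ACO1 and IREB2 each held a match of the same looser search in the 3′ UTR, with 1 mismatch above the bulge and 1 pair below it in ACO1 and 3 in IREB2, and these are not printed. The ferritin sites were identical at 25 of 27 bases. FTL held its site at bases 36 to 62 of an mRNA of 878 bases, and FTH1 at bases 60 to 86 of 1229. The 4 TFRC sites found by this search started between 939 and 1455 bases after the coding sequence, and the SLC11A2 site started 32 bases after it. SLC11A2 also has mRNA forms with another 3′ end that lack the hairpin, and a level per gene does not separate them.

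**Figure D1:**
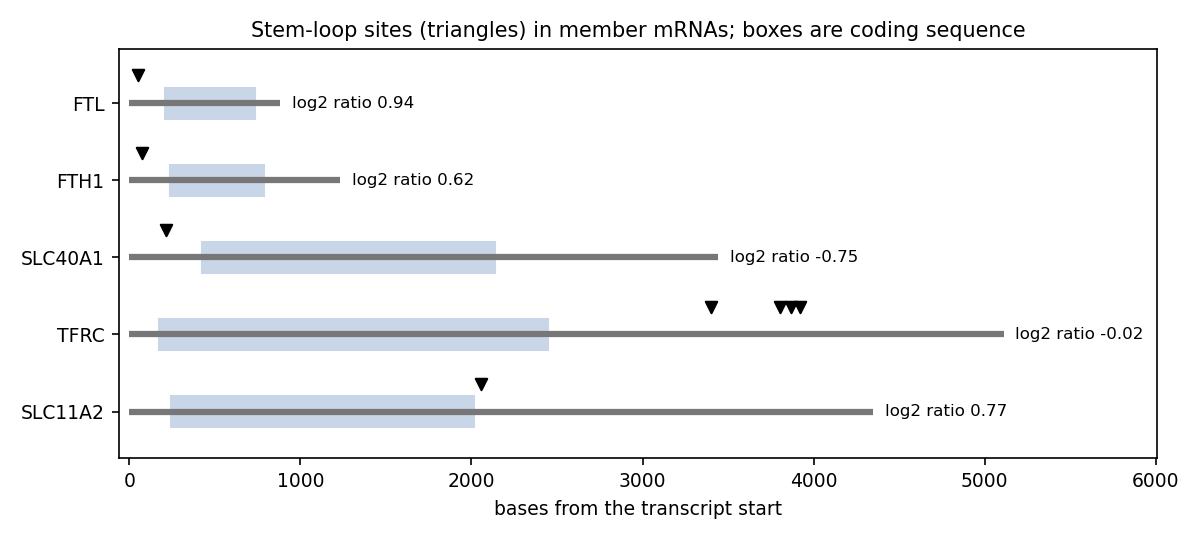
Stem-loop sites (triangles) along 1 GENCODE 29 transcript of each of the 5 genes whose hairpin is known, of which SLC11A2 met only the looser search, with the coding sequence as a box and the x axis in bases from the transcript start. The log2 ratio, ML290 over DMSO, stands at the right: FTL (0.94) and FTH1 (0.62) were higher with a site before the coding sequence, SLC40A1 (-0.75) was lower with a site before it, TFRC (-0.02) did not pass the threshold, and SLC11A2 (0.77) was higher with a site after it.

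Both ferritin chains, the importers SLC39A14 and SLC11A2, and the inducible haem oxygenase HMOX1 were higher with ML290, and ferroportin (SLC40A1) was lower. Of the 10 genes, these 5 were called higher by the authors' deposited table, where 19.5% of all rows were called higher. SLC40A1 alone of the 10 was called lower, where 15.6% of all rows were called lower. The other 4, TFRC, NCOA4, ACO1 and IREB2, did not pass the threshold, and 35.1% of all rows passed it in either direction. Among rows with a mean over all 8 samples of at least 10, 25.4% were called higher and 18.7% lower. Of the 10 genes, 9 reach that level, with 5 higher and 0 lower. The median log2 ratio was 0.24 over the 10 genes and 0.02 over all rows of the authors' deposited table. With a fold of at least 1.5 added to the threshold, 4 were higher and 1 was lower, against 6.01% and 4.77% of all rows by the authors' deposited table.

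**Figure D2:**
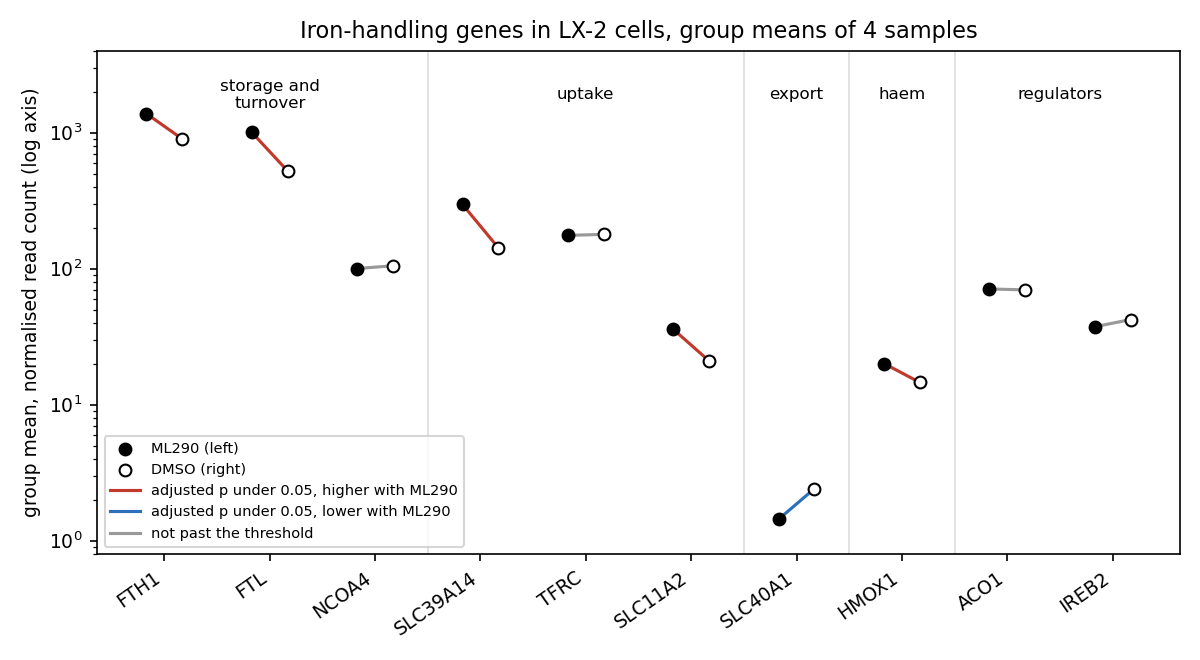
Group mean of each gene in normalised read counts on a log axis, ML290 as filled and DMSO as open circles, each the authors' mean over 4 samples with no error available; red lines mark genes called higher with ML290, blue lower, grey not past the threshold. FTH1 and FTL lie at the top and SLC40A1 lies near the bottom with 1.44 for ML290 and 2.42 for DMSO.

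Per length of mRNA, ferritin was the most abundant of these transcripts, and both of its chains rose. FTL, the light chain that helps iron nucleate inside the shell, had a mean of 1005 with ML290 and 522.8 with DMSO, 1.92-fold higher (adjusted p = 8.27e-08), by the authors' deposited table. FTH1, the heavy chain that oxidises ferrous iron as it enters, had 1379.7 with ML290 and 899 with DMSO, 1.53-fold higher (adjusted p = 2.13e-06), by the authors' deposited table. In normalised reads not corrected for mRNA length, the difference between the groups was 482.6 for FTL and 480.7 for FTH1 by the authors' deposited table. Per kilobase of mRNA, FTL had 1145 with ML290 and 595.4 with DMSO. FTH1 had 1123 with ML290 and 731.5 with DMSO per kilobase, a smaller difference. Together the chains made up 0.342% of all summed group means with ML290 and 0.202% with DMSO. The quotient of FTL over FTH1, not corrected for mRNA length, was 0.729 with ML290 and 0.582 with DMSO. The difference between these quotients could not be tested because it needs values per sample. Of all rows, 3.07% had a higher ratio than FTL and 7.36% a higher ratio than FTH1 by the authors' deposited table.

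Ferritin has many near-identical processed copies, of which GENCODE 29 names 16 for FTL and 25 for FTH1. The pseudogene FTH1P3 was the only row with such a symbol, with 1.23 for ML290 and 0.892 for DMSO at an adjusted p of 0.189 by the authors' deposited table. Summed with it, the FTH1 log2 ratio stayed at 0.62. How reads that match several copies were counted is not given in the sources used here, so the split between parent and copies is uncertain. FTH1 is also overlapped on the other strand by BEST1, which had 1.47 with ML290 and 0.823 with DMSO, 1.79-fold higher (adjusted p = 0.0163), by the authors' deposited table. FTL lies on chromosome 19 from 48965301 to 48966878 of GRCh38 and FTH1 on chromosome 11 from 61959718 to 61967660.

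NCOA4, the receptor that carries ferritin to lysosomes so that its iron can be freed, did not pass the threshold. Its mean was 100.3 with ML290 and 105 with DMSO, at an adjusted p of 0.411, by the authors' deposited table. A list of 12 partners of that route, which includes FTH1 and NCOA4 themselves, had a median log2 ratio of 0.14 by the authors' deposited table. Among them 3 were higher and 0 lower, which is 25.0% called beside 35.1% of all rows. Besides FTH1 these were the autophagosome proteins MAP1LC3B, 1.502-fold higher with 58.8 for ML290 and 39.1 for DMSO, and GABARAPL1, 1.36-fold higher with 25.7 for ML290 and 18.9 for DMSO, by the authors' deposited table. HERC2, the ubiquitin ligase that marks NCOA4 for degradation, had 207.1 with ML290 and 203.8 with DMSO, at an adjusted p of 0.763, by the authors' deposited table. PCBP1, a chaperone that delivers iron to ferritin, was 1.17-fold higher with 329.6 for ML290 and 281.9 for DMSO at an adjusted p of 0.0125, while its relative PCBP2 had 229.1 with ML290 and 221.6 with DMSO, at an adjusted p of 0.486, by the authors' deposited table. NCOA4 lies on chromosome 10 from 46005088 to 46030714.

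The routes of iron entry divided. SLC39A14, a transporter of zinc, manganese and iron not bound to transferrin, had 296.5 with ML290 and 142.4 with DMSO, 2.08-fold higher (adjusted p = 3.55e-08), by the authors' deposited table. Its ratio was the highest of the 10 genes, and 2.31% of all rows lay above it by the authors' deposited table. SLC11A2, which moves ferrous iron out of the endosome into the cytosol, had 35.9 with ML290 and 20.98 with DMSO, 1.71-fold higher (adjusted p = 4.82e-06), by the authors' deposited table. TFRC, which brings in transferrin-bound iron, had 175.8 with ML290 and 178.6 with DMSO, at an adjusted p of 0.774, by the authors' deposited table. Those means rest on about 13446 reads summed over the ML290 libraries and 15010 over the DMSO libraries, so low counts do not limit the TFRC value. The quotient of SLC11A2 over TFRC, not corrected for mRNA length, was 0.204 with ML290 and 0.117 with DMSO, again without a test. SLC39A14 lies on chromosome 8, SLC11A2 on chromosome 12 from 50979401 to 51028566 and TFRC on chromosome 3 from 196027183 to 196082189.

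Of 14 genes of cellular iron uptake, 10 were listed, 5 of them higher and 0 lower, by the authors' deposited table. Their median log2 ratio was 0.42 by the authors' deposited table. The shares over all rows were 19.5% higher and 15.6% lower. The 5 higher genes include SLC39A14 and SLC11A2, which are described above. With rows under a level of 1 removed, 4 genes of this list were higher and 0 lower. Beside SLC39A14 and SLC11A2, the nearest relative of SLC39A14, SLC39A8 (ZIP8), was 1.40-fold higher with 23.1 for ML290 and 16.4 for DMSO at an adjusted p of 0.00142 by the authors' deposited table. STEAP1, a member of the endosomal metalloreductase family, was 2.57-fold higher at a low level, 1.32 with ML290 and 0.514 with DMSO, at an adjusted p of 0.00536, by the authors' deposited table. TF, the gene of transferrin, was not listed in the authors' deposited table.

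The SLC39 family as a whole held both directions. Of 14 members 10 were listed, 6 of them higher and 1 lower, with a median log2 ratio of 0.37 by the authors' deposited table. For comparison, 19.5% of all rows were called higher and 15.6% lower. SLC39A7, which releases zinc from the endoplasmic reticulum, had 249 with ML290 and 150.6 with DMSO, 1.65-fold higher (adjusted p = 4.23e-07), by the authors' deposited table. SLC39A13, a zinc transporter of the secretory pathway needed for connective tissue, was 1.48-fold higher with 61.8 for ML290 and 41.8 for DMSO by the authors' deposited table. The lower member was SLC39A10, a zinc importer of the cell surface, 2.04-fold lower with 8.68 for ML290 and 17.8 for DMSO at an adjusted p of 9.78e-06, by the authors' deposited table.

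Of 11 genes that sort TFRC and SLC11A2 through endosomes, 2 were higher and 1 lower, which is 27.3% called beside 35.1% of all rows. Their median log2 ratio was 0.12 by the authors' deposited table. The ubiquitin ligase NEDD4L was 1.52-fold higher with 76.8 for ML290 and 50.4 for DMSO at an adjusted p of 3.64e-05, and the early endosome GTPase RAB5A was 1.38-fold higher with 40.3 for ML290 and 29.2 for DMSO at an adjusted p of 0.00114, by the authors' deposited table. VPS29, a subunit of the retromer coat, was 1.31-fold lower with 17.3 for ML290 and 22.6 for DMSO at an adjusted p of 0.00448 by the authors' deposited table. The endosomal sorting proteins SNX3 with 110.9 for ML290 and 114.5 for DMSO and VPS35 with 78.4 for ML290 and 75.5 for DMSO did not pass by the authors' deposited table.

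Ferroportin was the only gene of the 10 called lower, and it was scarce in both groups. SLC40A1 had 1.44 with ML290 and 2.42 with DMSO, 1.68-fold lower (adjusted p = 0.00327), by the authors' deposited table. These means correspond to about 110 reads summed over the ML290 libraries and 203 over the DMSO libraries, and 19.7% of all rows had a lower level. Under Bonferroni adjustment of the deposited p, SLC40A1 no longer passed. Of all rows, 4.54% had a lower ratio than SLC40A1 by the authors' deposited table. HEPH, HEPHL1 and CP, the multicopper ferroxidases that work beside ferroportin, were not listed in the authors' deposited table. SLC40A1 lies on chromosome 2 from 189560579 to 189583758.

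**Figure D3:**
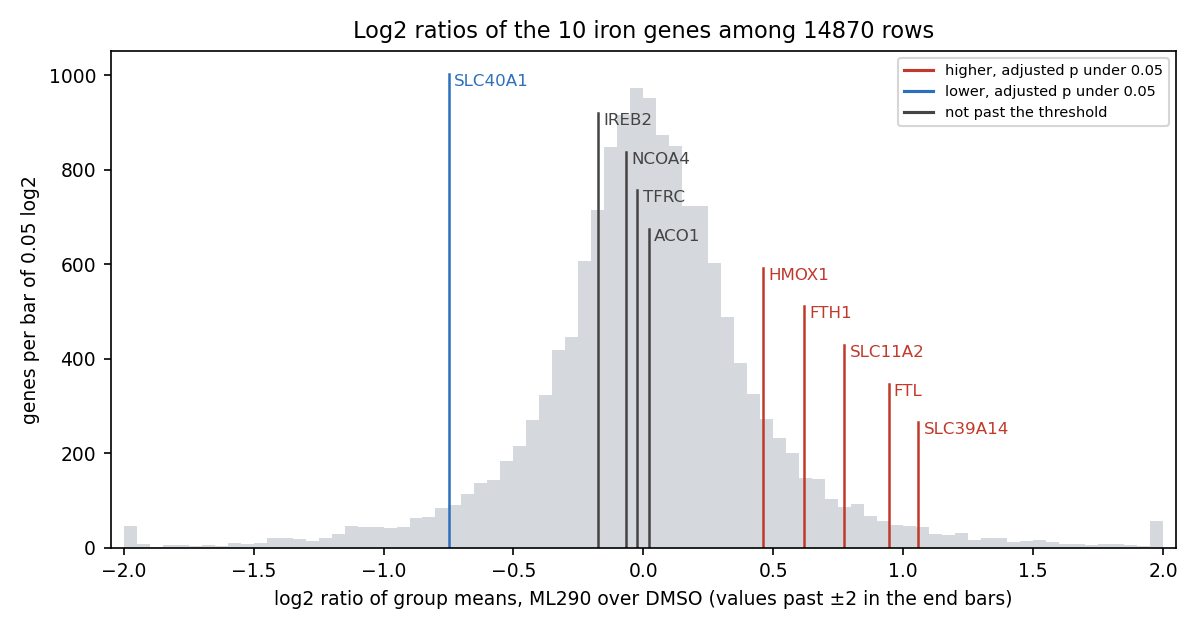
Distribution of the log2 ratio, ML290 over DMSO, over all 14870 rows (grey bars of 0.05 log2) with the 10 genes as lines whose height only spaces the labels. SLC39A14 (1.06), FTL, SLC11A2, FTH1 and HMOX1 (0.46) lie on the higher side, SLC40A1 (-0.75) on the lower side, and IREB2, NCOA4, TFRC and ACO1 lie between -0.17 and 0.02.

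HMOX1, the inducible enzyme that splits haem and frees its iron, rose as well. Its mean was 20.1 with ML290 and 14.6 with DMSO, 1.38-fold higher (adjusted p = 0.000371), by the authors' deposited table, and 11.99% of all rows had a higher ratio. HMOX1 did not pass under Bonferroni adjustment of the deposited p. The constitutive form HMOX2 was 1.20-fold lower with 35.2 for ML290 and 42.4 for DMSO at an adjusted p of 0.0128 by the authors' deposited table. BLVRB and BLVRA, the reductases that act after haem oxygenase, did not pass: BLVRB had 23.5 with ML290 and 19.5 with DMSO, at an adjusted p of 0.0617, and BLVRA had 12.2 with ML290 and 13.7 with DMSO, at an adjusted p of 0.139, by the authors' deposited table. HMOX1 lies on chromosome 22 from 35380361 to 35394214.

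Haem synthesis held more lower than higher genes. Of 9 enzymes 8 were listed, 1 higher and 3 lower, with a median log2 ratio of -0.15 by the authors' deposited table. Among all rows, 19.5% were called higher and 15.6% lower. The list is small, and under an adjusted p of 0.01 it held 1 higher and 2 lower. ALAS1, which catalyses the first and limiting step outside red cells, was 1.37-fold higher with 52.8 for ML290 and 38.6 for DMSO at an adjusted p of 9.60e-05 by the authors' deposited table. FECH, which inserts iron into the finished ring, was 1.36-fold lower with 14.4 for ML290 and 19.6 for DMSO at an adjusted p of 0.000454 by the authors' deposited table. ALAD, which acts after ALAS1, was 1.25-fold lower with 50.7 for ML290 and 63.1 for DMSO at an adjusted p of 0.00205 by the authors' deposited table. In the list of 11 genes of haem transport and binding, 3 were higher and 0 lower, which is 27.3% called beside 35.1% of all rows. The higher ones were PGRMC1, SLC46A1 and SLC48A1, by 1.20-fold, 1.25-fold and 1.19-fold, by the authors' deposited table. The median log2 ratio of this list was 0.21 by the authors' deposited table. LRP1, which takes up haem bound to haemopexin, had 1054 with ML290 and 951.5 with DMSO, at an adjusted p of 0.13, by the authors' deposited table. UROD, a later enzyme of haem synthesis, had 68.3 with ML290 and 70.7 with DMSO, at an adjusted p of 0.583, by the authors' deposited table.

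The iron-sensing regulators did not pass the threshold. IREB2, which is degraded when iron is plentiful, had 37.4 with ML290 and 42.2 with DMSO, at an adjusted p of 0.129, by the authors' deposited table. ACO1, which serves as an aconitase when it holds an iron-sulphur cluster and binds RNA when it does not, had 70.9 with ML290 and 69.9 with DMSO, at an adjusted p of 0.85, by the authors' deposited table. FBXL5, the iron-sensing ligase that degrades IREB2, had 26.5 with ML290 and 28.1 with DMSO, at an adjusted p of 0.439, by the authors' deposited table. With HERC2, all 4 genes of this system were listed, 0 higher and 0 lower at the adjusted threshold and also at an unadjusted p of 0.05 by the authors' deposited table, which does not show that their levels were equal. IREB2 lies on chromosome 15 from 78437431 to 78501456 and ACO1 on chromosome 9 from 32384603 to 32454769. The activity of both proteins is set by iron after transcription, which RNA levels do not measure.

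Of 10 transcripts known to carry an iron-responsive element, 9 were listed, with a median log2 ratio of 0.17 by the authors' deposited table. Among those listed 3 were higher and 1 lower, which is 44.4% called beside 35.1% of all rows. The 4 called were all among the genes above: FTL, FTH1, SLC11A2 and SLC40A1. EPAS1, the hypoxia factor HIF-2α, had 236.3 with ML290 and 210.6 with DMSO, at an adjusted p of 0.124, by the authors' deposited table.

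Several transcription factors that act on HMOX1 and the ferritin genes were higher. NRF2 (NFE2L2) activates these genes as a dimer with a small MAF protein, and BACH1 competes for the same MAF partners as a repressor. Of 9 such regulators 5 were higher and 1 lower, which is 66.7% called beside 35.1% of all rows. Their median log2 ratio was 0.35 by the authors' deposited table. All 3 small MAF genes rose: MAFF was 2.64-fold higher with 95.9 for ML290 and 36.3 for DMSO at an adjusted p of 5.47e-08 by the authors' deposited table. MAFG had 159.9 with ML290 and 69.98 with DMSO, 2.29-fold higher, and MAFK had 69.6 with ML290 and 44.1 with DMSO, 1.58-fold higher, by the authors' deposited table. BACH1 was 1.44-fold higher with 81.4 for ML290 and 56.7 for DMSO at an adjusted p of 0.000124 by the authors' deposited table. NFE2L2 itself had 29.4 with ML290 and 29.6 with DMSO, at an adjusted p of 0.951, by the authors' deposited table. NFE2L1, a relative of NRF2, was 1.28-fold higher with 276.8 for ML290 and 216.9 for DMSO at an adjusted p of 0.000185 by the authors' deposited table. HIF1A, the lower member, was 1.15-fold lower with 229.7 for ML290 and 263.8 for DMSO at an adjusted p of 0.0188 by the authors' deposited table.

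Iron and haem genes linked to NRF2 numbered 9, with a median log2 ratio of 0.25 by the authors' deposited table. Among them 4 were higher and 2 lower, which is 66.7% called beside 35.1% of all rows. The higher ones were FTL, FTH1, HMOX1 and SLC48A1, and the lower ones were SLC40A1 and FECH. Promoter windows of 300 bases, 250 before and 50 after the start, were found in the RefSeq table (GRCh38.p14) for 7 of the 10 genes, without FTH1, HMOX1 and SLC39A14. The antioxidant response element core TGACNNNGC, searched on both strands, was present in the window of NCOA4 and in 13.3% of 35116 windows. The NCOA4 match began 23 bases after the start. Sites outside the windows were not searched, so a gene without a match may still hold the element. The hypoxia core GCGTG was matched 6 times in the SLC11A2 window, 2 times in that of FTL and 1 time each in those of ACO1 and IREB2, and 36.5% of all windows held at least 1 match. The related core ACGTG was present in the windows of FTL and TFRC and in 21.4% of all windows. The pattern TGANTCA, the AP-1 motif loosened to any central base, reads the same on both strands. It was matched in the windows of NCOA4 (TGAATCA) and SLC11A2 (TGATTCA) and in 7.71% of all windows. Neither match has the central C or G of the AP-1 consensus, so both meet the looser pattern only.

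Genes of mitochondrial iron use and of iron-sulphur cluster assembly held both directions. In the mitochondrial list of 23 genes, 3 were higher and 2 lower, which is 21.7% called beside 35.1% of all rows, with a median log2 ratio of 0.08 by the authors' deposited table. SLC25A37 (mitoferrin-1), which carries iron into mitochondria, had 87.2 with ML290 and 60.6 with DMSO, 1.44-fold higher (adjusted p = 6.16e-05), by the authors' deposited table. HSPA9, the mitochondrial chaperone that also serves cluster transfer, was 1.47-fold higher with 265.9 for ML290 and 181.2 for DMSO by the authors' deposited table. CISD1, an iron-sulphur protein of the outer mitochondrial membrane, was 1.24-fold lower with 9.24 for ML290 and 11.5 for DMSO at an adjusted p of 0.0261 by the authors' deposited table. NFS1, the desulphurase that supplies sulphur to clusters, was 1.36-fold lower with 18.01 for ML290 and 24.4 for DMSO at an adjusted p of 0.000981 by the authors' deposited table. In the cytosolic list of 11 genes, 3 were higher and 1 lower, which is 36.4% called and near that background, with a median log2 ratio of 0.16 by the authors' deposited table. The higher ones were FAM96B with 36.1 for ML290 and 27.2 for DMSO, NDOR1 with 95.5 for ML290 and 79.5 for DMSO, and NUBP2 with 71.9 for ML290 and 59.9 for DMSO, by the authors' deposited table. The lower one was CIAPIN1, an electron carrier of the pathway, 1.20-fold lower by the authors' deposited table.

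The hepcidin axis, through which the body's iron level is sensed, held both directions. Of 14 genes 10 were listed, 2 higher and 3 lower, with a median log2 ratio of -0.13 by the authors' deposited table. Beside them, 19.5% of all rows were called higher and 15.6% lower. Under an adjusted p of 0.01 the list held 2 higher and 2 lower. The BMP receptor ACVR1 was 1.36-fold higher with 20.1 for ML290 and 14.8 for DMSO at an adjusted p of 0.00106, and SMAD4 was 1.25-fold higher with 63.3 for ML290 and 50.7 for DMSO at an adjusted p of 0.00156, by the authors' deposited table. NEO1, a partner of haemojuvelin, was 1.29-fold lower with 14.97 for ML290 and 19.3 for DMSO at an adjusted p of 0.00304, and BMPR2 was 1.20-fold lower with 116.2 for ML290 and 139.8 for DMSO at an adjusted p of 0.00873, by the authors' deposited table. HFE, the gene of hereditary haemochromatosis, was 1.29-fold lower with 4.73 for ML290 and 6.10 for DMSO at an adjusted p of 0.0463 by the authors' deposited table. FURIN, a protease that processes hepcidin, had 143.5 with ML290 and 129 with DMSO, at an adjusted p of 0.141, by the authors' deposited table. HAMP, the gene of hepcidin, and the ligands BMP2 and BMP6 were not listed in the authors' deposited table.

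**Figure D4:**
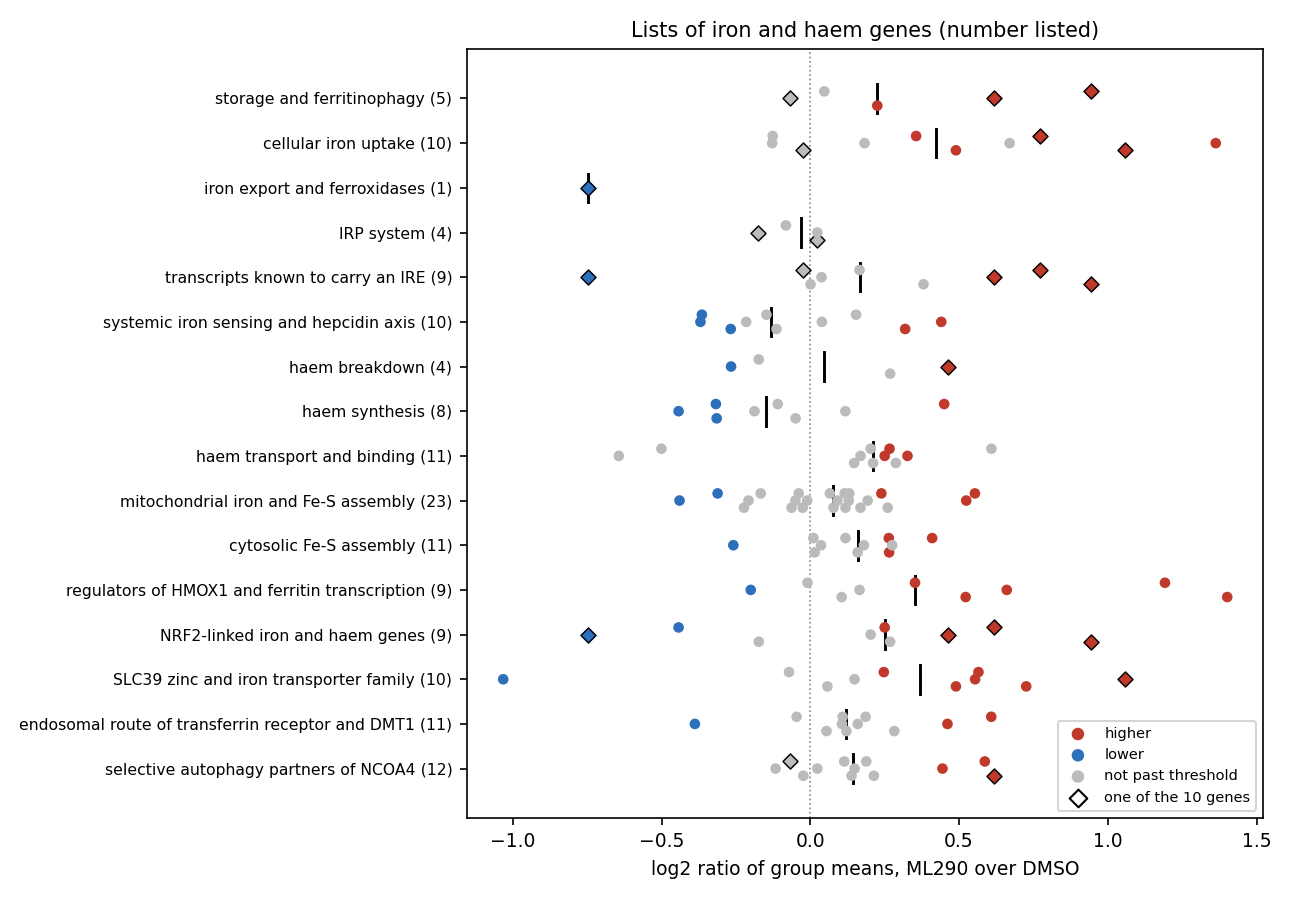
Log2 ratio, ML290 over DMSO, of each listed gene (points) in 16 lists of iron and haem genes, with the list's median as a black bar, red for higher, blue for lower and grey for genes not past the threshold; diamonds are the 10 genes. The uptake list has the highest median, 0.42, and the lists share genes.

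Over all 16 lists, 117 listed genes were not among the 10, and of these 29 were higher and 13 lower, with a median log2 ratio of 0.12 by the authors' deposited table. That is 24.8% higher and 11.1% lower, beside 19.5% and 15.6% of all rows. Of rows with a mean over all 8 samples of at least 10, 25.4% were higher and 18.7% lower. The lists also hold genes under that level, so neither background matches them exactly.

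Levels can be set against each other only per length of mRNA. Divided by the longest principal GENCODE 29 transcript in kilobases, the levels with ML290 ran from 1145 for FTL and 1123 for FTH1 to 63.9 for SLC39A14, 43.5 for NCOA4, 34.4 for TFRC, 11.0 for HMOX1, 9.50 for ACO1, 8.61 for SLC11A2, 5.89 for IREB2 and 0.418 for SLC40A1. With DMSO, FTH1 (731.5 per kilobase) stood above FTL (595.4), NCOA4 (45.5) and TFRC (34.9) above SLC39A14 (30.7), ACO1 (9.36) above HMOX1 (8.002), and IREB2 (6.65) above SLC11A2 (5.04). Which neighbours in this order differ beyond the spread between samples cannot be told from group means. In both groups SLC40A1 was last, at 0.702 per kilobase with DMSO.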

How the data were processed

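RNA of 8 LX-2 samples was purified on columns and sequenced, per the labels' protocols. The submitters' processing notes name GRCh38, Partek and STAR but neither version nor role. How reads were annotated, counted, filtered, scaled and tested, and whether strand was used, is not given in the sources used here. Group means and totals that the authors deposited are a signal in normalised read counts of unstated scaling, averaged over 4 samples and summed over 8. The ratio and the signed fold score that the authors deposited are quotients of those means. The p-value and the step-up form made from it are also the authors' deposited values. The file holds no values per sample, so no model was fitted and the file's adjusted p is used.

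Computed here were log2 ratios, counts past an adjusted p of 0.05, medians, alternative adjustments and the read step. The adjustment and the step were tested on simulated data. All simulated sums were whole multiples of the same step, which was among those searched. That test therefore does not cover libraries of unequal scale. The step was fitted to sums under 1.0, of which 88.2% of 595 (ML290) and 95.5% of 555 (DMSO) lay within 0.15 of a whole read, where chance would put 30% for a step not fitted to them. If values are scaled to 1000000 reads, this is about 19100000 reads per ML290 library and 21000000 per DMSO library. Read numbers cover counting error only.

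Members and lists were chosen with earlier results of these data known. Named are the 10 genes, up to 4 genes of each list with the smallest adjusted p past the threshold, up to 2 with the largest mean, members against their list's direction and ferritin pseudogenes. BEST1, FBXL5, PCBP2, BLVRA, NFE2L2, HFE, the markers and genes not listed were named after their values were seen, for role or position. Not every gene that this rule allows is reported here. Python 3.11.15, numpy 2.4.6, pandas 2.3.3 and matplotlib 3.10.9 were used.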

Additional observations from a re-analysis of the deposited data

How the results depend on the processing

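No paired analysis was possible because the file holds group means, and for the same reason no sample could be left out. Of 69 values of the 10 genes over 7 alternative settings, 66 kept their direction and, where checked, their side of the threshold. The setting that added 1 to each mean before taking log2 checked direction only. Stricter thresholds can only remove calls and cannot reverse a direction, so this count is no measure of robustness. HMOX1 lost its call under Bonferroni adjustment and with a fold of at least 1.5, and SLC40A1 lost its call under Bonferroni adjustment. With rows under a level of 10 removed, SLC40A1 was no longer tested, so the number of the 10 genes called lower was 0, as under Bonferroni adjustment. Under an adjusted p of 0.01, 1922 rows were higher and 1491 lower, and 8 distinct genes of the lists were lower. Bonferroni adjustment left 540 rows higher and 334 lower, and 11 genes of the lists higher and 1 lower. A fold of at least 1.5 left 894 rows higher and 710 lower, and 11 genes of the lists higher and 2 lower. These settings call fewer genes by construction. Centring on the median log2 ratio of all rows, 0.02, left the adjusted p as deposited. It could turn a call only where the log2 ratio lay between no change and that median. No call of the 10 genes or the lists changed. In the lists with 0 lower genes, an unadjusted p of 0.05 gave 0 lower for uptake, storage and the partners of NCOA4 and 1 lower for haem transport. SLC40A1, FTH1P3, BEST1 and STEAP1 rest on few reads, and group means set a limit that depth does not: no spread between samples can be given.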
